A study of Homo sapiens with 4 samples.

Results

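The YAP and TAZ target genes described here are CTGF, CYR61, ANKRD1, AMOTL1, AMOTL2, PTPN14, AJUBA, AXL, CRIM1 and F3. They were listed by gene symbol and not by a cut on measured values, although earlier results of these data were known. All 10 were found among the 59885 genes of the authors' deposited table, of which 30831 had a base mean above 0. RNA sequencing set 2 libraries of cells labelled PANC-1 with CFL1 knocked out (KO CFL1) against 2 control libraries of cells labelled PANC-1, all from total RNA. PANC-1 is an established human pancreatic ductal adenocarcinoma line, and CFL1 encodes cofilin-1, which severs actin filaments. The labels name no knockout method, clone, treatment or time, and they do not say that the libraries came from separate cultures. The p-values therefore rest on how these libraries scatter, and between the knockouts that scatter may be technical. The controls differed by more than 4-fold at 3608 of the 17141 genes with a base mean of 10 or more. The knockouts did so at 128. The p-values therefore do not measure a spread among like libraries, and what set the controls apart was not tested. The libraries are called knockout A, knockout B, control A and control B, and the letters do not map to the numbers in the labels.

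YAP and TAZ are transcriptional coactivators that the Hippo pathway restrains: the LATS kinases phosphorylate them, and phosphorylated YAP and TAZ stay in the cytoplasm. In the nucleus they act mainly through the TEAD factors, which recognise the motif GGAATG, often beside AP-1 factors. Tension on actin filaments favours nuclear YAP and TAZ, and work in cultured epithelial cells described cofilin as one of the proteins that restrain them. Their targets include secreted and membrane proteins as well as proteins that act back on the pathway.

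The promoters of the target genes are shown first. Genes known as targets of YAP and TAZ, which act mainly through TEAD factors, are not independent of the TEAD motif. The share of windows with GGAATG is therefore a description and not a test. RefSeq promoter windows on GRCh38.p14, from 250 bases before to 50 bases after a start site, were present for 8 of the 10 genes, in 11 windows. CYR61 and CRIM1 had no entry. On either strand, GGAATG was found in 6 of the 11 windows and in 14.03% of all 35116 RefSeq promoter windows. The AP-1 motif TGANTCA was found in 2 of the 11 windows and in 7.71% of all windows, and the CArG box of serum response factor in 0 of the 11 and in 1.29% of all. No match overlapped a match of another motif. The 249 bases upstream of CTGF, on the minus strand at chr6:131951374-131951622 (GRCh38.p14), are shown because they hold 3 GGAATG matches, at 169, 104 and 95 bases before the start, which are in capitals:
CTGF: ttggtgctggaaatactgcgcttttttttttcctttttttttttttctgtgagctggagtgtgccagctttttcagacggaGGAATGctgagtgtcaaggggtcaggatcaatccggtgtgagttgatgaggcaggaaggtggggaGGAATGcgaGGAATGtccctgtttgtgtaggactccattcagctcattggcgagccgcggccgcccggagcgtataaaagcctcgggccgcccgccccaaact

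F3, at chr1:94541801-94542009 on the minus strand (GRCh38.p14), is shown because its window held no GGAATG and 2 AP-1 matches, at 223 and 210 bases before the start, in capitals:
F3: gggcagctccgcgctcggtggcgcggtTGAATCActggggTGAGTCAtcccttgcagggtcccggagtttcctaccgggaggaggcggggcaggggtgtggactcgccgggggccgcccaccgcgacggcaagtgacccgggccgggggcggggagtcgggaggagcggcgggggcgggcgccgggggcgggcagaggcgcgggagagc

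The remaining GGAATG matches, in capitals within 8 flanking bases on each side, are written on the gene's own strand, so that a match on the other strand reads CATTCC. They lay 220 and 128 bases before the ANKRD1 start and 200 bases before the PTPN14 start. At AMOTL2, AJUBA and AXL they lay 69, 59 and 212 bases before the second of their 2 start sites, with no match at the first. On GRCh38.p14 the windows are chr10:90921294-90921315 and chr10:90921202-90921223 for ANKRD1, chr1:214551789-214551810 for PTPN14, chr3:134374503-134374524 for AMOTL2 and chr14:22976888-22976909 for AJUBA, all with the gene on the minus strand, and chr19:41226535-41226556 for AXL, on the plus strand.
ANKRD1, distal: ccaccaaaGGAATGgccctctc
ANKRD1, proximal: ctgagtctGGAATGaaaattca
PTPN14: ccgggccgCATTCCtccccgcc
AMOTL2: aactctcaCATTCCtggcatag
AJUBA: agttggctGGAATGaagccaaa
AXL: ctttgcacCATTCCactccctc

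**Figure D1:**
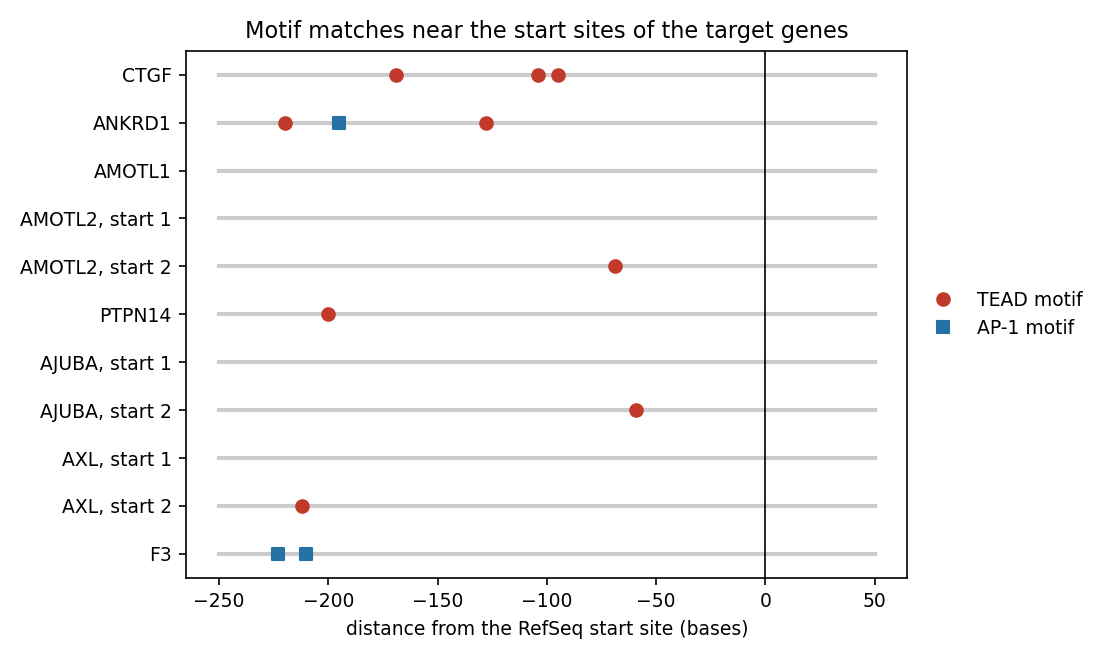
Motif matches near the start sites of the target genes, by distance in bases from each RefSeq start site; each grey line is 1 window, circles are GGAATG and squares TGANTCA matches on either strand. CTGF holds 3 circles and ANKRD1 2, while F3 holds 2 squares and no circle.

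A match describes letters and not occupancy, and AMOTL1 was the 1 gene of the 8 with neither GGAATG nor TGANTCA in any of its windows. ANKRD1 also held an AP-1 match, 195 bases before its start.

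The libraries differed in a way that touches every result below. The authors' table has no column for single libraries, and whole reads were recovered from its base means, between 12383310 (knockout B) and 14676561 (knockout A) per library. Over the 17141 genes whose base mean reached 10, Pearson correlations across genes, on log2(normalized count + 1), lay between 0.98 and 0.99 among the knockouts and control A, and between 0.70 and 0.71 for control B with each of them. CFL1 had 2285 and 2487 normalized counts in the knockouts, against 6276 in control A and 13761 in control B, so the knockouts lay below both controls. CDKN2A, which is known to be deleted in PANC-1, had 1553 and 1303 normalized counts in the knockouts, 906 in control A and 0 in control B, so that the knockouts and control A went against the cell line label at this gene. The ductal keratin KRT19 had 0 in both knockouts, against 1.82 in control A and 2481 in control B, and KRT7 had 4000 and 3683 in the knockouts, against 3551 in control A and 108 in control B. The keratins KRT8 and KRT18, with base means of 14817 and 12890 in the authors' deposited table, were too abundant for reads to be recovered, and EPCAM was between 6.36 and 42.5 in the 4 libraries. Summed fibroblast markers (5 of 6 with reads, LUM at 0 throughout) reached 1203 and 1071 in the knockouts, against 895 and 1861 in controls A and B. Its members went opposite ways: COL1A1 had 687 and 556 in the knockouts, 354 in control A and 1574 in control B, while PDGFRB had 439 and 451 in the knockouts, 513 in control A and 6.71 in control B. Summed leukocyte markers (5 of 5) reached 19.5 and 20.5 in the knockouts, against 20.9 and 1255 in controls A and B, of which CD68 made 1217 in control B. The defining leukocyte gene PTPRC had 1 read in knockout A and 0 in the other 3 libraries. Summed endothelial markers (3 of 4) reached 15.9 and 19.4 in the knockouts, against 38.2 and 165 in controls A and B, where KDR made 156 in control B and was 0 in the other 3 libraries. The part that this difference between the controls has in the results was not tested, and each result is given against each control as well as against both.

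Of the 10 target genes, 0 passed the authors' DESeq2 test at an adjusted p under 0.05, where 0.559% of the 16629 genes with an adjusted p did (0.421% lower and 0.138% higher in the knockouts). Deposited log2 fold changes were below 0 for 8 of the 10 and above 0 for AMOTL1 and F3, and their median in the authors' deposited table was -0.74 against -0.03 over all genes with an adjusted p. In bulk RNA, fewer cells with a transcript and less of it per cell cannot be told apart. At an unadjusted p under 0.05, the mark the authors' deposited table carries, 5 were lower in the knockouts (ANKRD1, AMOTL2, AXL, PTPN14 and CYR61) and 0 higher, where 9.49% of the genes with an adjusted p were lower and 3.13% higher. Both knockouts lay below both controls at 5 genes (ANKRD1, AMOTL2, PTPN14, AJUBA and AXL), as they did at 21.1% of genes with an adjusted p and recovered reads. Both lay above both controls at F3, as they did at 23.9% of those genes, and the groups overlapped at CTGF, CYR61, AMOTL1 and CRIM1. When limma was fitted to all 4 libraries, 0 of the 10 passed at an adjusted p under 0.05 and 0 at an unadjusted p under 0.05, against 0% and 1.99% of 24824 genes.

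**Figure D2:**
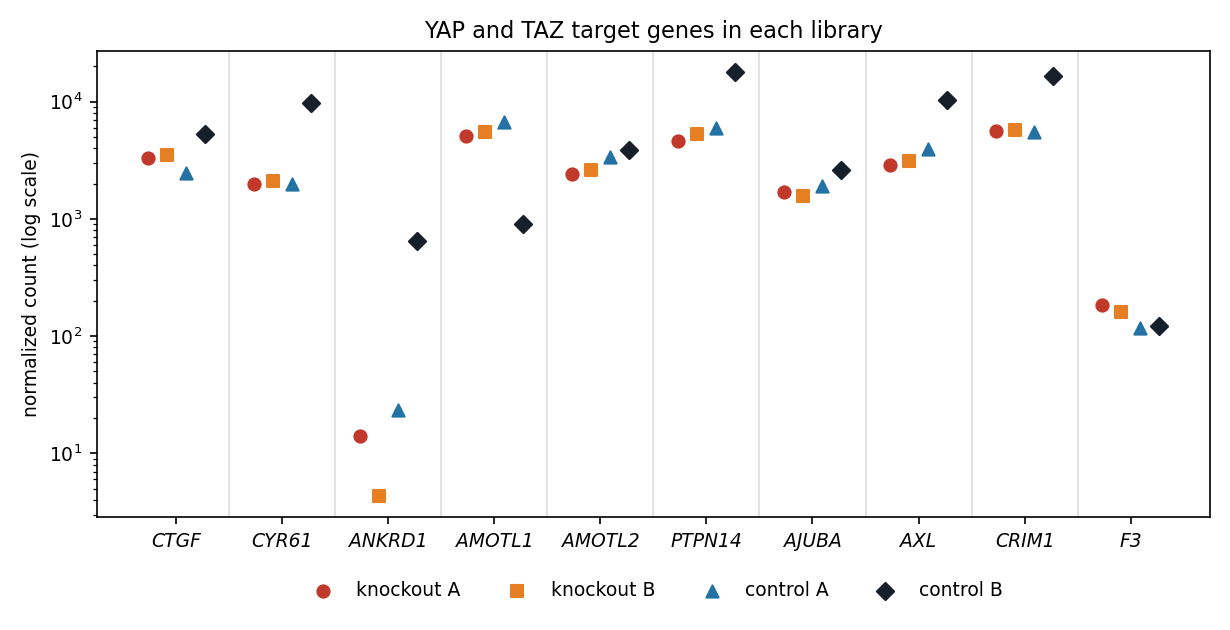
Normalized counts (log axis) of the 10 target genes in knockout A, knockout B, control A and control B, 1 point per library. The knockouts lie close to each other at every gene but ANKRD1, and control B lies above the other 3 libraries at 8 genes and below them at AMOTL1. CRIM1 is drawn in the division of reads chosen for similar knockouts.

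CTGF and CYR61 encode secreted matricellular proteins of the CCN family, which bind integrins and are the most used readouts of YAP and TAZ activity. CTGF (ENSG00000118523.5_2_CTGF, chromosome 6) had 3276 normalized counts in knockout A and 3474 in knockout B, against 2473 in control A and 5299 in control B. The knockouts thus lay between the controls, and their mean differed from control A by 0.45 and from control B by -0.65 on the log2 scale. For CTGF the authors' deposited table lists a log2 fold change of -0.20 ± 0.445 (± the standard error, here and below), with an adjusted p (DESeq2) of 0.844. CYR61 (ENSG00000142871.16_3_CYR61, chromosome 1) had 1970 normalized counts in knockout A and 2098 in knockout B, against 1989 in control A and 9682 in control B. Control B alone stood apart at CYR61. For CYR61 the authors' deposited table lists -1.52 ± 0.732, with an adjusted p (DESeq2) of 0.367, while the knockout mean differed from control A by 0.03 on the log2 scale and from control B by -2.25. Within a library, the ratio of CYR61 reads to CTGF reads was 0.601 in knockout A and 0.604 in knockout B, against 0.804 in control A and 1.83 in control B. This ratio does not depend on the scaling between libraries, and both knockouts had a lower ratio than either control. How often other gene pairs show such an order was not computed.

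ANKRD1 (ENSG00000148677.6_2_ANKRD1, chromosome 10), a nuclear ankyrin repeat protein that acts as a transcriptional cofactor, had the largest fold change of the 10 genes and the fewest reads of them in every library but control B. It had 16 reads in knockout A and 4 in knockout B, against 26 in control A and 580 in control B. As normalized counts with exact 95% Poisson intervals, which cover counting error only, these were 14.2 (8.10 to 23.0) and 4.31 (1.18 to 11.04) in the knockouts, against 23.6 (15.4 to 34.6) in control A and 648 (597 to 703) in control B. Both knockouts lay below both controls, but the interval of knockout A overlapped that of control A. For ANKRD1 the authors' deposited table lists -5.18 ± 1.43, with an unadjusted p of 0.000292 and an adjusted p (DESeq2) of 0.0511, just above the threshold. On the log2(normalized count + 1) scale the knockout mean differed from control A by -1.46 and from control B by -6.18. Without control B, limma's 95% interval for the difference ran from -5.78 to 2.87 (adjusted p 0.596).

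AMOTL2, AMOTL1, PTPN14 and AJUBA encode proteins that act back on the Hippo pathway. AMOTL2 and AMOTL1 are angiomotin-like junctional proteins that bind YAP and hold it in the cytoplasm, PTPN14 is a phosphatase that does the same, and AJUBA is a LIM domain protein that binds and inhibits LATS kinases at junctions. AMOTL2 (ENSG00000114019.14_3_AMOTL2, chromosome 3) had 2406 normalized counts in knockout A and 2598 in knockout B, against 3365 in control A and 3852 in control B. The knockouts lay below both controls, at 0.743 of control A and 0.649 of control B, and control B exceeded control A by 0.20 on the log2 scale. For AMOTL2 the authors' deposited table lists -0.53 ± 0.194, the smallest standard error of the 10 genes, with an unadjusted p of 0.00644 and an adjusted p (DESeq2) of 0.210. Without control B, limma gave AMOTL2 a log2 difference of -0.43 (95% interval -0.80 to -0.05, adjusted p 0.381), and without control A -0.62 (adjusted p 0.0553).

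AMOTL1 (ENSG00000166025.17_2_AMOTL1, chromosome 11) had 5075 normalized counts in knockout A and 5508 in knockout B, against 6724 in control A and 912 in control B. Control B was the low library at AMOTL1, 7.37-fold below control A, whereas it exceeded control A at the other 9 genes. At F3 it did so by only 0.04 on the log2 scale, and at CRIM1 only in the division of reads used. Control B exceeded control A at 49.7% of all genes with an adjusted p and recovered reads. For AMOTL1 the authors' deposited table lists 0.47 ± 0.856, with an adjusted p (DESeq2) of 0.811. The knockout mean differed from control A by -0.35 and from control B by 2.53 on the log2 scale. The ratio of AMOTL1 reads to AMOTL2 reads was 2.11 in knockout A and 2.12 in knockout B, against 1.998 in control A and 0.237 in control B. Both knockouts thus had a higher ratio than either control, but control A lay close below them. Counting error of these ratios was not computed, and other gene pairs were again not set beside them.

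PTPN14 (ENSG00000152104.11_3_PTPN14, chromosome 1) had 4583 normalized counts in knockout A and 5288 in knockout B, against 5941 in control A and 17885 in control B. The knockouts lay below both controls, and their mean differed from control A by -0.27 and from control B by -1.86 on the log2 scale. For PTPN14 the authors' deposited table lists -1.27 ± 0.572, with an unadjusted p of 0.0263 and an adjusted p (DESeq2) of 0.331. AJUBA (ENSG00000129474.15_3_AJUBA, chromosome 14) had 1682 normalized counts in knockout A and 1562 in knockout B, against 1894 in control A and 2603 in control B. The knockouts again lay below both controls, with differences of -0.22 from control A and -0.68 from control B on the log2 scale. For AJUBA the authors' deposited table lists -0.47 ± 0.272, with an adjusted p (DESeq2) of 0.458.

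AXL, CRIM1 and F3 encode proteins of the cell surface. AXL (ENSG00000167601.11_2_AXL, chromosome 19), a receptor tyrosine kinase for the ligand GAS6, had 2866 normalized counts in knockout A and 3099 in knockout B, against 3961 in control A and 10274 in control B. The knockouts lay below both controls, at 0.753 of control A and 0.290 of control B. The entry for AXL in the authors' deposited table is -1.25 ± 0.517, with an unadjusted p of 0.0152 and an adjusted p (DESeq2) of 0.269. Without control B, limma gave AXL a log2 difference of -0.41 (95% interval -0.80 to -0.02, adjusted p 0.381).

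CRIM1 (ENSG00000150938.9_2_CRIM1, chromosome 2), a transmembrane protein with cysteine-rich repeats that binds bone morphogenetic proteins, had 5610 normalized counts in knockout A and 5735 in knockout B, against 5540 in control A and 16546 in control B. Control B alone stood apart, and the knockout mean differed from control A by 0.03 on the log2 scale. The entry for CRIM1 in the authors' deposited table is -0.96 ± 0.566, with an adjusted p (DESeq2) of 0.468. The base mean of CRIM1 also allowed a second division of reads, with 3933 and 7413 normalized counts in the knockouts, against 21769 in control A and 316 in control B. That division would put the knockouts 1.89-fold apart, a gap reached by 1 of the 1050 genes whose base mean was 3000 or more, and it was not used.

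F3 (ENSG00000117525.13_2_F3, chromosome 1) encodes tissue factor, the receptor that starts blood coagulation. It had 206 reads in knockout A and 149 in knockout B, against 129 in control A and 108 in control B. As normalized counts with exact 95% Poisson intervals these were 182 (158 to 209) and 161 (136 to 189) in the knockouts, against 117 (97.9 to 139) in control A and 121 (99.02 to 146) in control B. F3 was the 1 target gene with both knockouts above both controls, by 0.54 against control A and by 0.50 against control B on the log2 scale, and its controls differed by 0.04. The interval of knockout B overlapped those of both controls, and that of knockout A lay above both. The entry for F3 in the authors' deposited table is 0.53 ± 0.341, with an unadjusted p of 0.121 and an adjusted p (DESeq2) of 0.507.

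**Figure D3:**
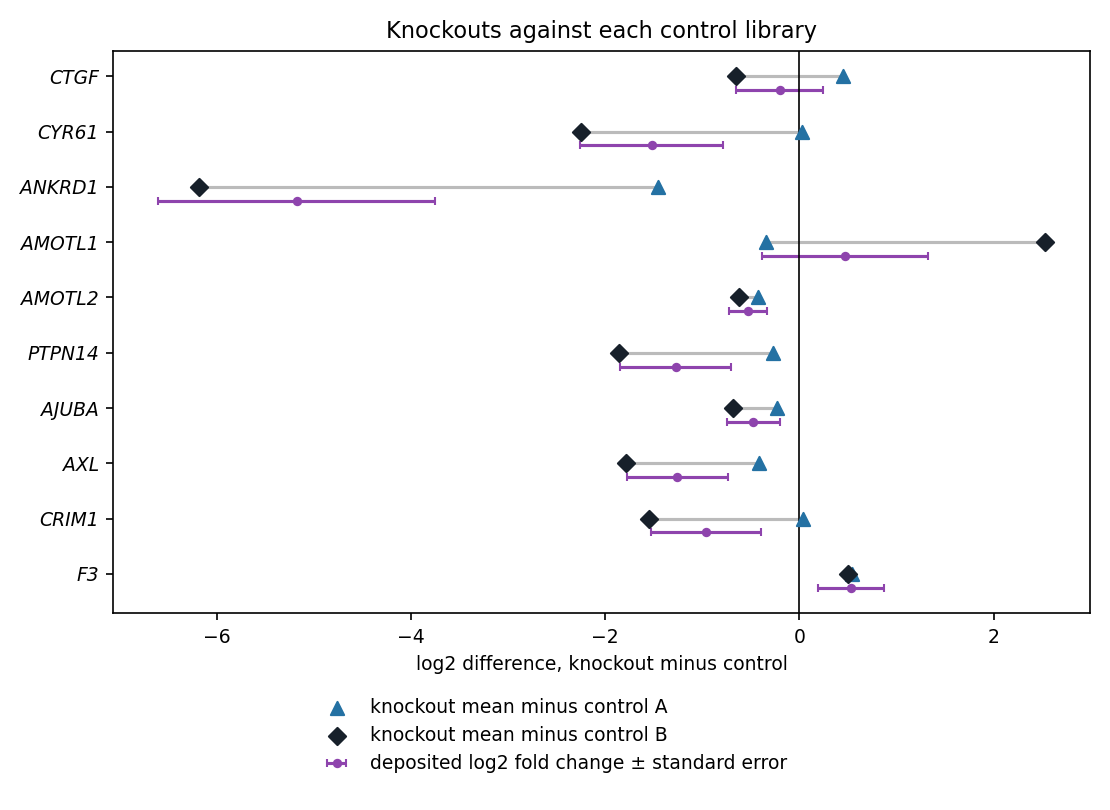
Log2 difference of the knockout mean from control A (triangles) and from control B (diamonds) for the 10 target genes, on the log2(normalized count + 1) scale, with the log2 fold change and standard error of the authors' deposited table (circles with bars). The triangles lie between -0.43 and 0.54 at every gene but ANKRD1, and triangle and diamond nearly coincide at AMOTL2 and F3.

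The knockouts differed little from each other at most of these genes, by 0.08 (CTGF) to 0.21 (PTPN14) on the log2 scale. ANKRD1 was the exception at 1.51, where reads were fewest in the knockouts. The 0.03 at CRIM1 is no observation of likeness, since its division of reads was chosen for similar knockouts. The controls differed from each other by more than 2-fold at 7 of the 10 genes, against 44.4% of genes with an adjusted p and recovered reads. The exceptions were AMOTL2, AJUBA and F3, with differences of 0.20, 0.46 and 0.04 on the log2 scale. Against control A the median of the 10 genes was -0.25 and against control B -1.11, beside 0.01 against either control over all genes with an adjusted p and recovered reads. Of the 10 genes 6 were lower in the knockout mean than in control A and 8 were lower than in control B, against 48.6% and 49.6% of all genes with an adjusted p and recovered reads. Both comparisons use the same knockout libraries. With limma without control A, 6 of the 10 were lower in the knockouts (CTGF, CYR61, PTPN14, AJUBA, AXL and CRIM1) and 1 was higher (AMOTL1) at an adjusted p under 0.05, against 16.1% and 17.4% of 24824 genes (33.5% in either direction). Without control B 0 of the 10 passed, with 3 at an unadjusted p under 0.05 (AMOTL2 and AXL lower, CTGF higher), against 12.9% of genes. In each of these fits the lone control is assumed to vary like the knockouts. Without control B no gene of the whole set passed either, so that fit cannot tell the target genes from the rest. It does not show that their differences vanish, and their sizes in that fit are the differences from control A given above.

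The wider set was the 14 further genes of a YAP and TAZ signature of 22 genes drawn from many cancers, of which CTGF, CYR61, ANKRD1, AMOTL2, PTPN14, AXL, CRIM1 and F3 are the other 8. Of these 14 genes, 0 passed the authors' DESeq2 test at an adjusted p under 0.05, against 0.559% of all genes. At an unadjusted p under 0.05, 5 were lower in the knockouts (ASAP1, DOCK5, NT5E, NUAK2 and TGFB2) and 0 higher, against 9.49% and 3.13% of the 16629 genes tested. In the authors' deposited table the median of their log2 fold changes was -0.41, with 8 below 0 and 6 above 0. Reads were recovered for 13, and both knockouts lay below both controls at 3 of them, above both at 3, and overlapped at 7. Over all genes with an adjusted p and recovered reads, 21.1% lay below both controls and 23.9% above both, which is close to the shares of these 13.

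At DOCK5, an activator of the small GTPase Rac, the controls differed by 0.04 on the log2 scale. It had 4916 normalized counts in knockout A and 5200 in knockout B, against 7058 in control A and 7262 in control B. The knockouts lay at 0.716 of control A and 0.696 of control B, and the entry for DOCK5 in the authors' deposited table is -0.50 ± 0.157, with an unadjusted p of 0.00144 and an adjusted p (DESeq2) of 0.122. ASAP1, an Arf GTPase-activating protein, had 1235 and 1432 in the knockouts, against 2013 in control A and 5321 in control B. NUAK2, a kinase related to AMPK, had 455 and 466 in the knockouts, against 584 in control A and 1146 in control B. ASAP1, DOCK5 and NUAK2 were the 3 of the 13 further signature genes with both knockouts below both controls. LATS2, IGFBP3 and CCDC80 were the 3 with both knockouts above both controls.

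At NT5E, the ecto-nucleotidase CD73, control B alone stood apart, with 348 and 413 normalized counts in the knockouts, against 391 in control A and 5861 in control B. The ligand gene TGFB2 had 215 and 283 in the knockouts, against 272 in control A and 1157 in control B. IGFBP3, which encodes an insulin-like growth factor binding protein, went the other way, with 5664 and 6352 in the knockouts, against 3445 in control A and 215 in control B. The entry for IGFBP3 in the authors' deposited table is 1.71 ± 1.53, with an adjusted p (DESeq2) of 0.633. MYOF, the most abundant of the 14 with a base mean of 11950 in the authors' deposited table, was above the limit for recovered reads, and its entry there is -0.31 ± 0.243, with an adjusted p (DESeq2) of 0.587.

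**Figure D4:**
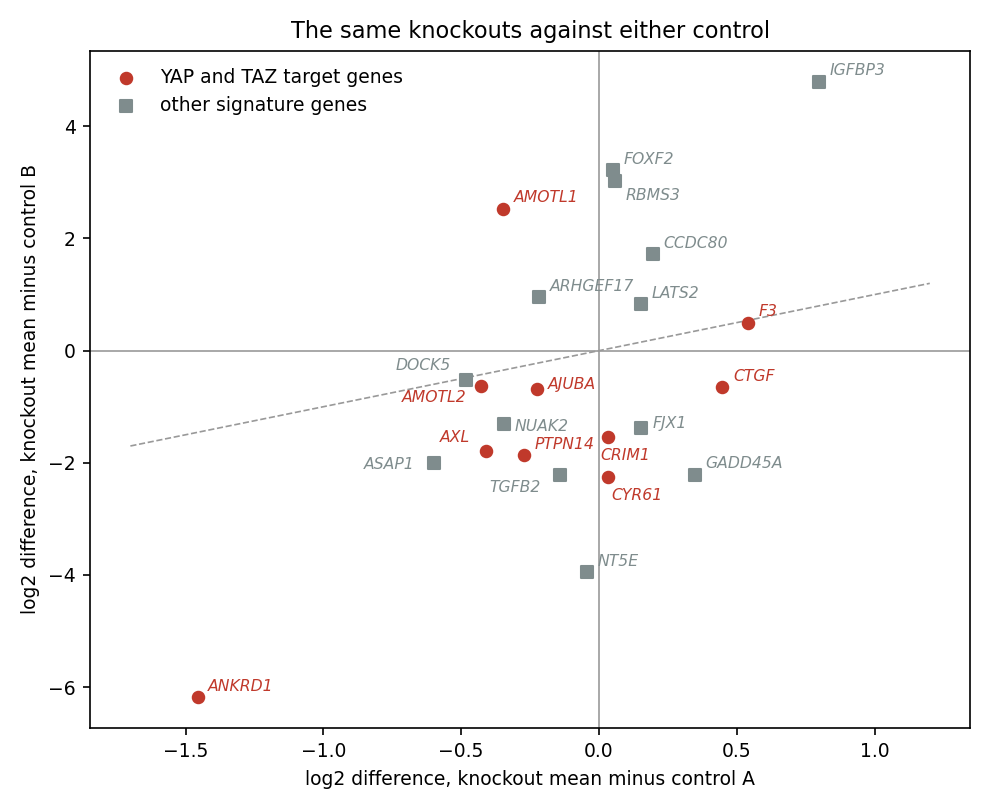
Log2 difference of the knockout mean from control A (horizontal axis) and from control B (vertical axis) for the 10 target genes (circles) and the 13 other signature genes with recovered reads (squares); on the dashed line both differences are equal. The axes share the knockout libraries; AMOTL2, F3 and DOCK5 lie near the line, and ANKRD1 lies farthest from 0 on both axes.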

How the data were processed

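Per the labels' protocols, total RNA from the knockout and control libraries was read on an Illumina NovaSeq instrument. Per the submitters' processing notes, the tools were STAR, RSEM, cutadapt and FastQC and the build hg19. Versions, the annotation and the strandedness of the kit are not given in the sources used here. The authors deposited 1 file, with DESeq2 results for knockout over control. The deposited base mean is a signal: size-factor-scaled counts averaged across the 4 libraries by the authors. The log2 fold change with its standard error, the Wald score and the unadjusted and adjusted p-values are the authors' deposited values. A gene was called at an adjusted p under 0.05. The target genes, the lists and the tests were chosen with earlier results of these data known.

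Reads per library were recovered from the deposited base means. Each base mean is a sum of whole reads times 4 steps, which were read off genes with a single read. Combinations matching a base mean to its 15 printed digits were listed. From a base mean of 200, only those within a window around the deposited fold change were searched. They were also checked against the deposited fold change, at the dispersion implied by the deposited standard error. Below a base mean of 10 the tolerance was fixed. From 10 on, the fold change had to match to within 2.5e-05 times the squared standard error. That tolerance was set after the data were seen. From a base mean of 10, 16885 genes had 1 division that met it. Where none met it, a lone combination was taken unchecked, below a base mean of 200 or at very large fold changes. KRT19 and KDR, with 0 reads in both knockouts, were taken this way. All 30662 genes with a base mean above 0 and below 10000 gave a division, and 169 genes at or above 10000 were left out. CRIM1 and PFN1 allowed 2 divisions, and the one with more similar knockouts was taken, a choice also made after the data were seen. Of 750 base means shifted on purpose, 0 gave a single accepted division, and cases that allowed more than 1 were not counted. A library's group came from the sign of the fold change at genes with a single read. RSEM values are estimated counts, which the recovered whole numbers round. In GENCODE 29, genes on the opposite strand overlap CTGF, AMOTL1, PTPN14, AXL and CRIM1, and genes on the same strand overlap AJUBA, AMOTL2 and PTPN14, so their reads may be shared.

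Differences between libraries are on the log2(normalized count + 1) scale, which understates changes of low genes. On that scale limma 3.58.1 (R 4.3.3), with a trended prior, was fitted to 24824 genes whose mean was 1 or more, with Benjamini-Hochberg adjustment over all of them. It was first run on simulated libraries that shared 1 mean per gene, apart from genes changed on purpose in the knockouts. None of these departed as control B does, so that run cannot show how limma behaves with such a control. A smaller pseudocount (0.1), a higher minimum mean (10), TMM scaling and leaving out each library were tried as alternatives. Signature genes described singly are those with an unadjusted p under 0.05 in the deposited table and the 3 with the highest base mean. Others are named only for the order of their libraries or a change of sign. Python 3.11.15, numpy 2.4.6, pandas 2.3.3, scipy 1.17.1, numba 0.67.0 and matplotlib 3.10.9 were used. Promoters are RefSeq sequences on GRCh38.p14, matched by symbol and shown down to the most upstream GENCODE 29 start. No coordinates of the deposited genes are given, since that table is on another build.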

Additional observations from a re-analysis of the deposited data

How the results depend on the processing

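No target gene passed (0 of 10) in the deposited table with or without independent filtering, at base means of at least 10 or at an adjusted p under 0.01, nor with limma on all 4 libraries at a pseudocount of 1 or 0.1, a mean of at least 10 or TMM scaling; the same held for the other signature genes (0 of 14, or of 13 with recovered reads). At an unadjusted p under 0.05, 5 target genes and 5 other signature genes were counted in the deposited table, where 12.6% of genes with an adjusted p were. Leaving out 1 library gave from 0 to 7 called target genes, from 0 to 12 other signature genes and from 0 to 8310 of all 24824 genes, each highest count coming without control A. With limma on all 4 libraries 0 of all genes passed (495 at an unadjusted p under 0.05 with a pseudocount of 1, 469 with 0.1 and 492 with TMM), against 93 in the deposited table. Why limma and the deposited fit differ was not tested. Some limma log2 fold changes took the other sign without control B, and the ends of their leave-one-out range, without control A and without control B, were -0.65 and 0.45 for CTGF, -2.25 and 0.031 for CYR61, 2.53 and -0.35 for AMOTL1, -1.54 and 0.034 for CRIM1, -1.38 and 0.15 for FJX1, -2.21 and 0.35 for GADD45A, and 0.95 and -0.22 for ARHGEF17. Under the other limma settings, every target gene kept its direction. No paired analysis was possible because the table carries no replicate numbers. With 2 libraries against 2, an exact permutation test cannot go below 0.333. Depth limits ANKRD1, with 4 reads in knockout B.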
